A study of Mus musculus with 12 samples.

Results

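The urea cycle and the breakdown of amino acids that feeds it were followed in mouse liver through 10 genes, the cycle enzymes and carrier *Nags*, *Cps1*, *Otc*, *Slc25a15*, *Ass1*, *Asl* and *Arg1* and the amino acid enzymes *Gls2*, *Hal* and *Sds*. The members were taken by gene name, and all 10 were found among the 41743 genes measured in both sets of mice. RNA of frozen whole liver from 12 female mice aged 3 to 4 months was sequenced, in 4 groups of 3. In the C57BL/6 set, YAP KO mice carried floxed *Yap1*, a *Foxa3*-Cre that recombines in the foregut endoderm, and a ROSA-stop-EYFP reporter allele, and they were compared with WT littermates. In the mixed C57BL/6-FVB set, mice labelled YAP KO TAZ HET of the F3 offspring, in which 1 copy of *Wwtr1* was also deleted, were compared with WT littermates. The Cre is meant to remove *Yap1* from the liver progenitors that give rise to hepatocytes and bile duct cells. Which cells of these whole livers lost or kept it was not measured.

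The urea cycle turns the ammonia set free by amino acid breakdown into urea. Its first steps run in mitochondria, where ammonia and bicarbonate are joined to carbamoyl phosphate and then to ornithine, and its last steps run in the cytosol, where the product is built up to arginine and split into urea and ornithine. In the liver lobule the cycle and most amino acid breakdown sit in the periportal hepatocytes, around the portal vein and bile duct, while the last hepatocytes around the central vein take up leftover ammonia as glutamine.

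The values are TPM, in which reads are scaled for gene length and for the library total, so levels can be compared between genes, while every library sums to 1000000 and the number of reads behind a value is unknown. Replicates are different mice, and the p-values measure the spread between these mice. Values are given in the order LM75, LM192, LM193 for WT (C57BL/6), LM74, LM189, LM191 for YAP KO, LM226, LM227, LM230 for WT (mixed) and LM225, LM250, LM251 for mice labelled YAP KO TAZ HET. *Yap1* was at 28.2 to 30.5 TPM in WT (C57BL/6) and 1.67 to 3.72 TPM in YAP KO livers, and at 31.0 to 33.2 TPM in WT (mixed) and 8.63 to 11.5 TPM in livers labelled YAP KO TAZ HET. *Wwtr1* was not lower in the group labelled as having lost a copy: it was at 7.73 to 8.38 TPM in WT (mixed) livers and 11.5 to 14.1 TPM in livers labelled YAP KO TAZ HET, so these levels do not check that label. In YAP KO livers it was at 13.3 to 16.7 TPM, against 6.26 to 6.83 TPM in WT (C57BL/6), a rise of 0.73 on the log2 scale used below (limma adjusted p = 0.00176), beside 0.26 in mice labelled YAP KO TAZ HET (limma adjusted p = 0.0744). The difference of 0.46 between these changes did not pass the threshold (limma adjusted p = 0.798). For the tests, TPM were divided by a trimmed mean factor of each library, 1 was added, and log2 was taken. Fold changes are on this scale, and adjusted p-values are from limma with Benjamini-Hochberg adjustment over all genes tested. The factors matter. With them the median log2 fold change of all genes was -0.04 in each set, with 2195 genes higher and 2103 lower in the C57BL/6 set and 2253 and 2233 in the mixed set. Unscaled, the medians were 0.28 and 0.24, and the counts became 4390 higher and 834 lower, and 4089 higher and 886 lower. Scaling to 12 hepatocyte reference genes gave 3415 higher and 913 lower, and 3723 and 945. The changes given are therefore relative to the bulk of the genes.

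All 10 genes were well expressed, and their order of levels was led by *Ass1* in each group. In WT (C57BL/6) livers *Ass1* stood at 3628 TPM, followed by *Arg1* at 1471 and *Cps1* at 1084 TPM. *Asl*, *Gls2*, *Sds*, *Otc*, *Slc25a15* and *Hal* came next, between 356 and 157 TPM, and neighbours among these 6 overlapped in their livers. *Nags* was lowest at 64.5 TPM, below every liver of the gene above it. The lead of *Ass1*, the overlap of *Arg1* with *Cps1*, the gap between these 3 genes and the other 7, and the last place of *Nags* were found in all 4 groups. The order changed in the middle: *Otc* lay above *Slc25a15* in both WT groups (194 against 169 TPM, and 217 against 184 TPM, with overlapping livers) and below it in both knockout groups (135 against 262 TPM in YAP KO and 145 against 245 TPM in livers labelled YAP KO TAZ HET, without overlap). Together the 10 genes held 0.613% to 1.196% of all TPM of a liver.

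Upstream sequence is shown for the 2 members whose call held in YAP KO mice under every alternative tried, *Otc* and *Hal*, and for *Slc25a15*, the member whose place relative to *Otc* changed. RefSeq promoter windows on GRCm38.p6 matched 5 of the 10 members (*Nags*, *Otc*, *Slc25a15*, *Ass1* and *Hal*, with 6 windows), and *Cps1*, *Asl*, *Arg1*, *Gls2* and *Sds* had none. The 250 bases before the start site are printed 5′ to 3′ on the strand of the gene, in lower case, with motif matches in capitals.
Otc (chrX:10252055-10252304, plus strand): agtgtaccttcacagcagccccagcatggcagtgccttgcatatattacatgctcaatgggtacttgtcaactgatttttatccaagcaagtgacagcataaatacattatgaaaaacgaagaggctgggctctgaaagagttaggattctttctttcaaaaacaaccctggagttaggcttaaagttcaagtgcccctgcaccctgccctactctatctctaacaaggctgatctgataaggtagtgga
Hal (chr10:93488518-93488767, plus strand): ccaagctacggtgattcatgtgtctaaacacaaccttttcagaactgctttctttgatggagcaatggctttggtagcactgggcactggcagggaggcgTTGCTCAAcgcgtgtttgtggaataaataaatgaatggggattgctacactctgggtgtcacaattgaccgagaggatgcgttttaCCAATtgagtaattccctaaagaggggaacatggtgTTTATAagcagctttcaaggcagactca
Slc25a15 (chr8:22398622-22398871, minus strand): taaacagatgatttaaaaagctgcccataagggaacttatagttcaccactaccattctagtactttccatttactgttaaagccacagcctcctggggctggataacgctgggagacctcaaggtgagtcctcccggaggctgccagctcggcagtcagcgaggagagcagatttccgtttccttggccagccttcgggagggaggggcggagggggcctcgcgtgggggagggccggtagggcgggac
Both strands were searched for 8 motifs, each given with its share of all 32851 windows of this length. The TEAD motif CATTCC occurs in 12.6% of them. The half-site of the cAMP response element, TGACG, occurs in 17.8%, and that of the glucocorticoid receptor, TGTTCT, in 16.1%. The core of the HNF4A motif, CAAAGTC, is found in 3.84%, and the C/EBP motif TTGCNNAA in 9.56%. The half-site of HNF1, GTTAAT, is found in 6.43%. A TATA box with the letters TATAAA was present in 12.4% and the CCAAT box in 33.8%. *Hal* held 3 matches that do not overlap each other: C/EBP from base -150 and the CCAAT box from base -64 on the strand of the gene, and the TATA box from base -28 on the other strand, counted from the base before the start site. The other 5 windows, those of *Otc* and *Slc25a15* included, held none of these letters, which says nothing about the factors themselves. G and C made up 43.6% of the bases before *Otc*, 45.6% before *Hal* and 57.6% in the window shown for *Slc25a15*. The other window of *Slc25a15* holds 80.4% G and C and overlaps transcribed bases of the gene, so it is not printed.

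In YAP KO livers 4 of the 10 genes fell and none rose: *Otc*, *Asl*, *Gls2* and *Hal*. Among all 11704 genes tested, 18% fell and 18.8% rose by the same rule. The median log2 fold change of the 10 was -0.47, with 8 of 10 below 0. The livers of the groups did not overlap on the scaled values for the same 4 genes, all lower, against 26.5% of all genes that were lower without overlap. In the mixed set 6 of the 10 fell and none rose: *Otc*, *Asl*, *Gls2* and *Hal* again, with *Sds* and *Nags*. There 19% of all 11741 genes fell and 19.2% rose. The median of the 10 was -0.50, with 9 of 10 below 0, and 7 of 10 were lower without overlap, against 27.6% of all genes. In whole liver, fewer hepatocytes and less RNA per hepatocyte cannot be told apart.

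**Figure D1:**
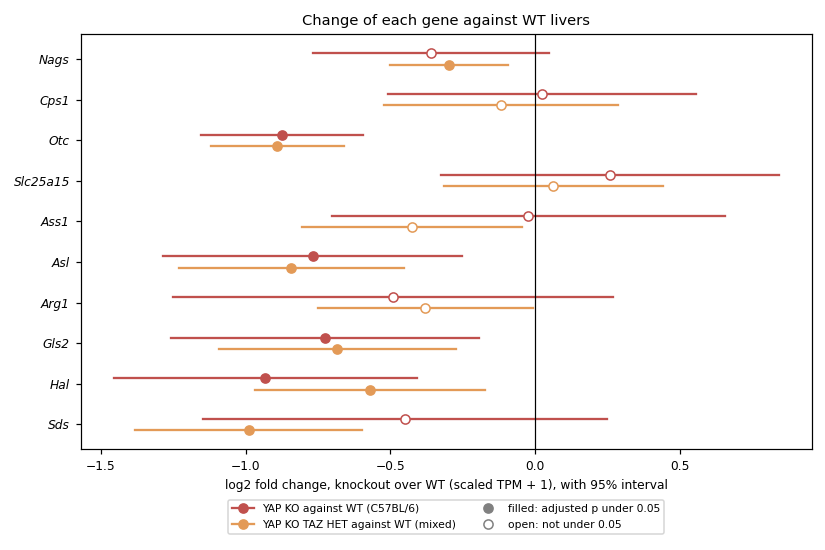
Log2 fold change of each gene against WT livers (x axis, log2 of scaled TPM + 1), with the 95% interval of the limma fit of 6 livers (lines), for YAP KO (red) and YAP KO TAZ HET (orange) mice. Filled points have an adjusted p under 0.05: *Otc*, *Asl*, *Gls2* and *Hal* are filled in both sets, *Sds* and *Nags* in the mixed set alone, and *Cps1* and *Slc25a15* lie near or above 0.

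*Otc*, ornithine transcarbamylase, which joins carbamoyl phosphate to ornithine, was the member with the smallest adjusted p in both sets. The gene (ENSMUSG00000031173) lies on chromosome X of GRCm38 from 10252305 to 10321024. It was at 207, 176 and 197 TPM in WT (C57BL/6) and 131, 139 and 135 TPM in YAP KO livers. The mixed set had 239.5, 220.2 and 190.1 TPM in WT livers against 147, 146 and 142 TPM in livers labelled YAP KO TAZ HET. Every knockout liver was below every WT liver of its set, also in TPM as deposited, where a two-sided exact permutation test gave p = 0.1 in each set, the smallest that 3 mice against 3 allow. *Otc* fell by 0.87 on the log2 scale in YAP KO (standard error 0.12, limma adjusted p = 0.00108) and by 0.89 in mice labelled YAP KO TAZ HET (standard error 0.10, limma adjusted p = 0.000351). Both calls were kept under all 14 alternatives tried in each set, with log2 fold changes from -0.96 to -0.51 in YAP KO mice. The knockout livers of both sets spanned 131 to 147 TPM, a narrower range than that of either WT group.

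*Cps1*, carbamoyl phosphate synthase, which catalyses the first and rate-limiting step of the cycle, did not pass the threshold in either set. It lies on chromosome 1 from 67123026 to 67231259 (ENSMUSG00000025991). Its levels were 1327, 1100.5 and 825 TPM in WT (C57BL/6) and 1157, 1346 and 1728 TPM in YAP KO livers, and they overlapped. Those of the mixed set were at 1817, 1375 and 1061 TPM against 1854, 1586 and 1381 TPM, again with overlap. In YAP KO mice *Cps1* had a log2 fold change of 0.02 (95% interval -0.51 to 0.56, limma adjusted p = 0.944), and in mice labelled YAP KO TAZ HET of -0.12 (95% interval -0.52 to 0.29, limma adjusted p = 0.632). The second was 0.21 without scaling, so its direction depends on the scale.

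*Nags* makes N-acetylglutamate, the activator that *Cps1* requires. It was at 63.3, 68.3 and 61.9 TPM in WT (C57BL/6) and at 57.5, 54.7 and 84.4 TPM in YAP KO livers, where mouse LM191 lay above all others and the groups overlapped. Its log2 fold change there was -0.36 (95% interval -0.77 to 0.05, limma adjusted p = 0.148), and without LM191 it was -0.57 with a limma adjusted p of 0.0105. The levels of the mixed set were 73.15, 67.8 and 62.1 TPM against 71.6, 68.98 and 65.2 TPM, which overlap as deposited. On the scaled values *Nags* fell by 0.30 (standard error 0.09, limma adjusted p = 0.0303), but without scaling the value was 0.02 (limma adjusted p = 0.889). The call was also lost under the other scalings, with all 12 libraries in 1 fit, and without any of LM226, LM227, LM225, LM250 and LM251.

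*Slc25a15*, the carrier that brings ornithine into mitochondria, had 199.8, 177 and 130.2 TPM in WT (C57BL/6) and 188, 309 and 288 TPM in YAP KO livers. It had 213, 176 and 163 TPM in WT (mixed) and 323, 223 and 189 TPM in livers labelled YAP KO TAZ HET. Each set had 2 knockout livers above all WT livers and 1 among them. The log2 fold changes were 0.26 (95% interval -0.33 to 0.84, limma adjusted p = 0.461) and 0.06 (95% interval -0.32 to 0.44, limma adjusted p = 0.792). Without scaling, *Slc25a15* rose by 0.62 in YAP KO mice (limma adjusted p = 0.0467). *Slc25a2*, a second ornithine carrier gene, was listed at 0 in 6 of 12 livers and at 0.709 TPM at most.

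**Figure D2:**
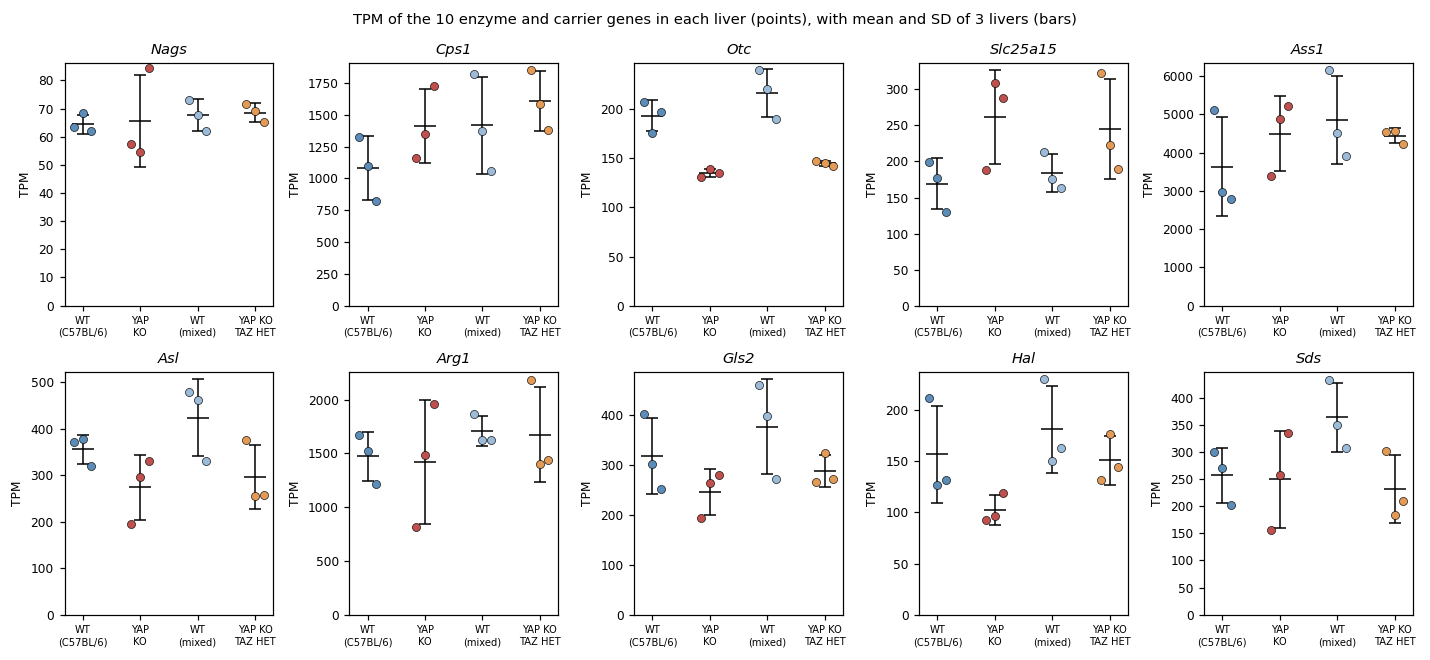
TPM as deposited (y axis, from 0) of each gene in each of 12 livers (points), by group (x axis), with the mean and SD of 3 livers (bars). *Otc* is lower in every knockout liver of both sets, between 131 and 147 TPM, while *Cps1*, *Ass1* and *Arg1* overlap between knockout and WT livers.

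In the cytosol, *Asl* fell in both sets while *Ass1* and *Arg1* did not pass the threshold. *Asl*, argininosuccinate lyase, which releases arginine and fumarate (ENSMUSG00000025533, chromosome 5 from 130011258 to 130029247), was at 370.5, 377 and 319 TPM in WT (C57BL/6) and at 196, 295 and 330.1 TPM in YAP KO livers. It was at 479.8, 462 and 329.5 TPM in WT (mixed) and at 376, 256 and 257 TPM in livers labelled YAP KO TAZ HET. The groups overlapped as deposited and did not on the scaled values. *Asl* fell by 0.77 (standard error 0.22, limma adjusted p = 0.0287) and by 0.84 (standard error 0.17, limma adjusted p = 0.00551). The call in YAP KO mice was lost without WT mouse LM75 or LM192, without the filter on low values and under the 3 other scalings (limma adjusted p up to 0.106). The call in the mixed set was lost without scaling (limma adjusted p = 0.0573) and under quantile normalization (limma adjusted p = 0.104). The value was negative in each case.

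*Ass1*, argininosuccinate synthase, which brings in the second nitrogen from aspartate, was at 5116, 2975 and 2795 TPM in WT (C57BL/6) and at 3377, 4886 and 5221 TPM in YAP KO livers. Of the WT livers LM75 alone lay above the lowest knockout. The log2 fold change was -0.02 (95% interval -0.70 to 0.65, limma adjusted p = 0.96), and it was positive without scaling (0.34), under quantile normalization (0.46) and when scaled to hepatocyte reference genes (0.26). WT (mixed) livers had 6146, 4501 and 3914 TPM of *Ass1*, and those labelled YAP KO TAZ HET had 4547, 4552 and 4225 TPM. This gave a log2 fold change of -0.43 (95% interval -0.80 to -0.05 before adjustment, limma adjusted p = 0.0741). A near-identical copy of its transcript, *Gm5424*, is annotated in GENCODE M21 but is not listed among the genes measured. How reads that match both were counted is unknown, so the levels of *Ass1* carry that uncertainty.

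*Arg1*, the arginase that splits arginine into urea and ornithine, was at 1669, 1526 and 1219 TPM in WT (C57BL/6) and at 816, 1481 and 1962 TPM in YAP KO livers, which spanned a wider range than the WT livers on both sides. It was at 1866, 1628 and 1628 TPM in WT (mixed) and at 2186, 1399 and 1436 TPM in livers labelled YAP KO TAZ HET. Its log2 fold changes were -0.49 (95% interval -1.25 to 0.27, limma adjusted p = 0.278) and -0.38 (95% interval -0.75 to -0.01 before adjustment, limma adjusted p = 0.0985). Without mouse LM225 the second passed the threshold (-0.55, limma adjusted p = 0.0101), and under quantile normalization it was 0.12. *Arg2*, the mitochondrial arginase, was at 0.0799, 1.19 and 0.159 TPM in WT (C57BL/6) and at 2.40, 2.19 and 1.79 TPM in YAP KO livers, a rise of 0.99 (standard error 0.28, limma adjusted p = 0.0261). That call was lost under quantile normalization and without any mouse other than LM192. WT (mixed) livers were listed at 0.91, 0 and 1.16 TPM, and those labelled YAP KO TAZ HET at 1.57, 2.42 and 2.85 TPM (limma adjusted p = 0.0682).

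Each of the 3 amino acid enzymes fell in at least 1 set. *Hal*, histidase, which starts the breakdown of histidine (ENSMUSG00000020017, chromosome 10 from 93488768 to 93519304), was at 212, 127 and 131 TPM in WT (C57BL/6) and at 92.4, 96.3 and 119 TPM in YAP KO livers. These groups did not overlap even as deposited (two-sided exact permutation test, p = 0.1). *Hal* fell by 0.93 there (standard error 0.23, limma adjusted p = 0.0139), under all 14 alternatives. Of the mixed set, WT livers had 229.9, 151 and 163 TPM and knockouts 131, 177 and 144 TPM, overlapping as deposited. *Hal* fell there by 0.57 on the scaled values (standard error 0.17, limma adjusted p = 0.0313), a call that was lost under the 3 other scalings, without the filter on low values, with all 12 libraries in 1 fit and without any of the mice LM226, LM230, LM225 and LM251 (limma adjusted p up to 0.285).

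*Gls2* encodes the liver-type glutaminase, which frees ammonia from glutamine beside the cycle. It was at 401, 301 and 252 TPM in WT (C57BL/6) and at 193, 264 and 279 TPM in YAP KO livers, and at 459, 397 and 272.5 TPM in WT (mixed) and 265, 324 and 272 TPM in livers labelled YAP KO TAZ HET. Both sets overlapped as deposited and neither did after scaling. *Gls2* (ENSMUSG00000044005, chromosome 10 from 128194457 to 128210004) fell by 0.73 (standard error 0.23, limma adjusted p = 0.0399) and by 0.68 (standard error 0.18, limma adjusted p = 0.0174). The first call held in 6 of 14 alternatives and was lost without LM75, LM192, LM74 or LM189 among others, and the second was lost without LM226, LM227 or LM251 and under the 3 other scalings. *Gls2* shares exons with *Spryd4* on the opposite strand, which reached 47.8 TPM, and whether the counting used strand is not given in the sources used here.

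*Sds*, serine dehydratase, which turns serine into pyruvate and ammonia, was at 300.3, 269.7 and 201.5 TPM in WT (C57BL/6) and at 157, 258 and 335 TPM in YAP KO livers, which lay on both sides of the WT range. Its log2 fold change there was -0.45 (95% interval -1.15 to 0.25, limma adjusted p = 0.279). WT (mixed) livers had 433, 350.2 and 307 TPM and those labelled YAP KO TAZ HET 302, 183 and 209 TPM, without overlap as deposited (two-sided exact permutation test, p = 0.1). There *Sds* (ENSMUSG00000029597, chromosome 5 from 120476526 to 120483932) fell by 0.99 (standard error 0.17, limma adjusted p = 0.00276), under all 14 alternatives. It shares exons with *Plbd2* on the opposite strand, which reached 80.1 TPM.

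The changes of the 10 genes did not differ between the models past the threshold. In 1 fit of all 12 livers the gap between their changes, counted as C57BL/6 set less mixed set, passed for 0 of 10 genes, none with an unadjusted p under 0.05, against 0.0658% of 12159 genes. It ran from -0.37 for *Hal* (95% interval -1.06 to 0.32) to 0.53 for *Sds* (95% interval -0.31 to 1.38), with limma adjusted p = 0.999 for each. The intervals leave room for differences of over 1 on the log2 scale for *Sds*, *Ass1*, *Hal* and *Arg1*, and that of *Otc* was the narrowest, from -0.33 to 0.35. *Yap1* itself differed between the models, by -1.59 (limma adjusted p = 0.0326), with 2.44 TPM left in YAP KO and 9.77 TPM in the other knockout livers on average. The extent of *Yap1* loss, the *Wwtr1* genotype, the background and the set of animals cannot be told apart in this difference. Between the WT groups, all 10 genes were higher in the mixed set and 0 of 10 passed the threshold, against 0.216% of 11126 genes. The median difference of the 10 was 0.17, and 1 had an unadjusted p under 0.05, *Sds*, with a difference of 0.44 (95% interval 0.05 to 0.83, limma adjusted p = 0.793).

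Ratios of 2 genes within a liver do not depend on the scaling, and they show unequal change of 2 members without saying which one moved. *Otc* over *Cps1* was 0.156, 0.1601 and 0.239 in WT (C57BL/6) and 0.113, 0.103 and 0.0781 in YAP KO livers. The mixed set had 0.132, 0.1602 and 0.179 in WT and 0.0793, 0.0919 and 0.103 in livers labelled YAP KO TAZ HET. Every knockout liver had less *Otc* for its *Cps1* than every WT liver of its set, at 0.534 and 0.583 times the WT ratio on average (exact permutation p = 0.1 for both). *Slc25a15* over *Otc* moved the other way, from 0.877 ± 0.189 to 1.93 ± 0.429 and from 0.849 ± 0.0444 to 1.69 ± 0.451 (SD, n = 3), with no shared values (exact permutation p = 0.1 in each set). *Asl* over *Ass1* was lower in YAP KO livers, from 0.1045 ± 0.0285 to 0.0605 ± 0.00265 without overlap (SD, n = 3, exact permutation p = 0.1), and overlapped in the mixed set, at 0.0883 ± 0.0128 and 0.0666 ± 0.0141 (SD, n = 3, exact permutation p = 0.2). *Nags* over *Cps1* overlapped in both sets (exact permutation p = 0.3 and 0.4). The ratios *Otc* over *Cps1*, *Slc25a15* over *Otc* and *Asl* over *Ass1* were chosen after the levels had been seen.

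Against paralogues and partners, 2 ratios moved in the same way in both sets. *Sdsl*, a serine dehydratase-like gene, over *Sds* was 0.0498 ± 0.014 in WT (C57BL/6) and 0.0942 ± 0.042 in YAP KO livers (SD, n = 3). For the mixed set these were 0.0324 ± 0.00549 and 0.105 ± 0.0285 (SD, n = 3), without overlap in either set. *Glul*, glutamine synthetase of the pericentral hepatocytes, over *Cps1* was 0.450, 0.865 and 1.17 in WT (C57BL/6) and 0.239, 0.305 and 0.2504 in YAP KO livers. That ratio in the mixed set was 0.410, 0.553 and 0.771 in WT and 0.327, 0.0958 and 0.112 in livers labelled YAP KO TAZ HET, where LM225 was the highest knockout. *Glul* over *Gls2*, *Oat* over *Otc* and *Cad*, of the pyrimidine pathway, over *Cps1* overlapped in both sets. Over the 21 ratio tests an exact p of 0.1 became 0.175 after Benjamini-Hochberg adjustment, so none passes 0.05 and the design allows none to.

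**Figure D3:**
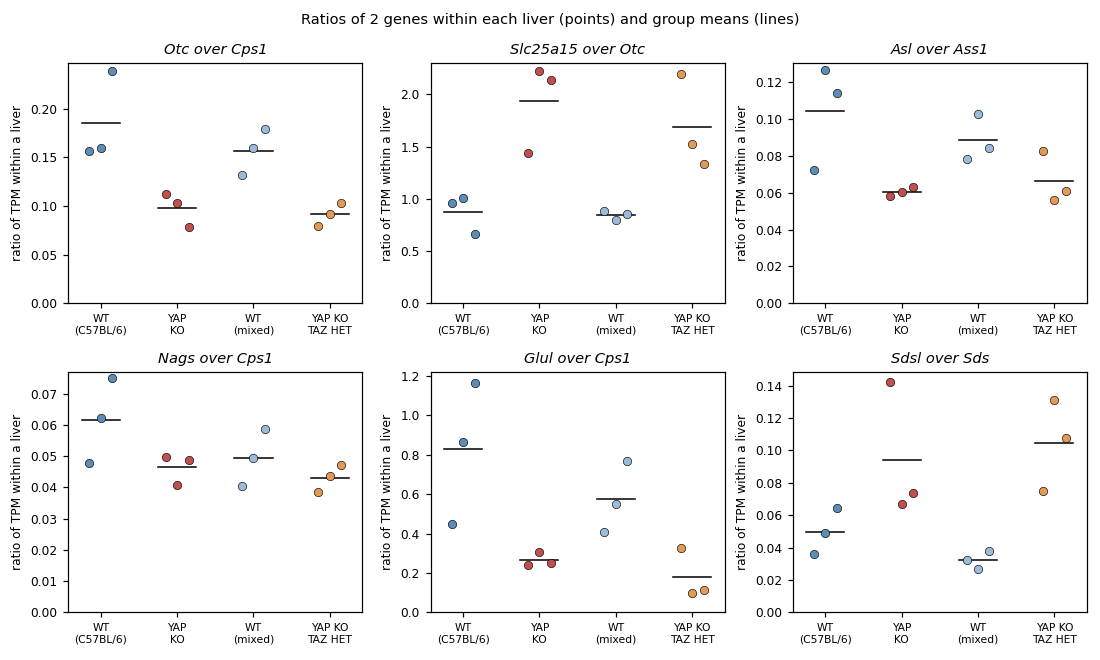
Ratio of the TPM of 2 genes within each liver (y axis, from 0) for 12 livers (points) in 4 groups (x axis), with group means (lines). *Otc* over *Cps1* is lower and *Slc25a15* over *Otc* higher in every knockout liver than in every WT liver of its set.

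As a sum, the 10 genes overlapped between groups in TPM as deposited. They held 7698 ± 1938 TPM in WT (C57BL/6) and 8659 ± 2099 TPM in YAP KO livers, and 9792 ± 1974 TPM in WT (mixed) and 9146 ± 962 TPM in those labelled YAP KO TAZ HET (SD, n = 3, exact permutation p = 0.7 in each set). On the scaled values the sum was 0.882 times WT in YAP KO mice, with overlap, and 0.749 times WT in the mixed set, without overlap (exact permutation p = 0.1). The breakdown enzymes *Gls2*, *Hal* and *Sds* summed to 732 against 598 TPM in the C57BL/6 set, with overlap, and to 921 against 669 TPM in the mixed set, without overlap as deposited (exact permutation p = 0.1). *Ass1* alone made up 46.45% to 52.13% of the sum in the group means, so the sum follows that gene. The share of *Asl* in the sum was 3.755% to 5.315% in WT (C57BL/6) and 3.075% to 3.233% in YAP KO livers. In the mixed set it was 4.013% to 4.955% in WT and 2.87% to 3.683% in knockout livers. When each gene was set against the geometric mean of the other 9 in the same liver, *Cps1* and *Slc25a15* were higher in every knockout liver of both sets, by 0.51 and 0.77 on the log2 scale in the first set and 0.44 and 0.64 in the second (exact permutation p = 0.1 each). *Asl* was lower in every knockout liver of both sets, by -0.37 in each. *Otc* was lower without overlap in the mixed set alone (-0.42), with -0.49 and overlap in the C57BL/6 set (exact permutation p = 0.2).

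The livers of a group differed more in some members than in others, and largely together. Mouse LM74 was below the mean of the YAP KO group for all 10 genes, with a median deviation of -0.47 on the log2 scale, and LM191 was above it for all 10. LM75 and LM226 were above the means of their WT groups for all 10, and LM230 below for all 10. After removing the group means, the 45 pairs of members had a median Pearson r of 0.681 over 12 livers, from 0.262 for *Asl* with *Hal* to 0.97 for *Arg1* with *Sds*, and no pair was negative. These values describe livers that share library, scaling factor and cell makeup. No median r was taken for pairs of other genes, so that of the members is not shown to be particular to them. *Otc* and *Nags* varied least and *Arg1*, *Ass1* and *Sds* most, as the map of deviations shows. Among 10178 genes above the same low level, the most alike were *Gls2* with *Cth* and *Tspan9* (r = 0.982 and 0.979), *Slc25a15* with *Jmjd8* and *Got1* (0.977 and 0.97), *Ass1* with *Arhgef37* and *Car14* (0.968 and 0.964), *Asl* with *Aass* and *Slco2b1* (0.968 and 0.953), *Cps1* with *Gprc5c* and *Abat* (0.956 and 0.95), *Hal* with *Pde9a* and *Pgrmc2* (0.953 and 0.948), *Nags* with *Zfyve21* (0.957) and *Otc* with *Ranbp10* (0.941). Picking the highest of so many genes over 12 livers favours a high r, so these pairs are a description only. The most alike fellow member ranked from 1, for *Arg1* and *Sds*, to 74 for *Otc* and 199 for *Nags*.

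**Figure D4:**
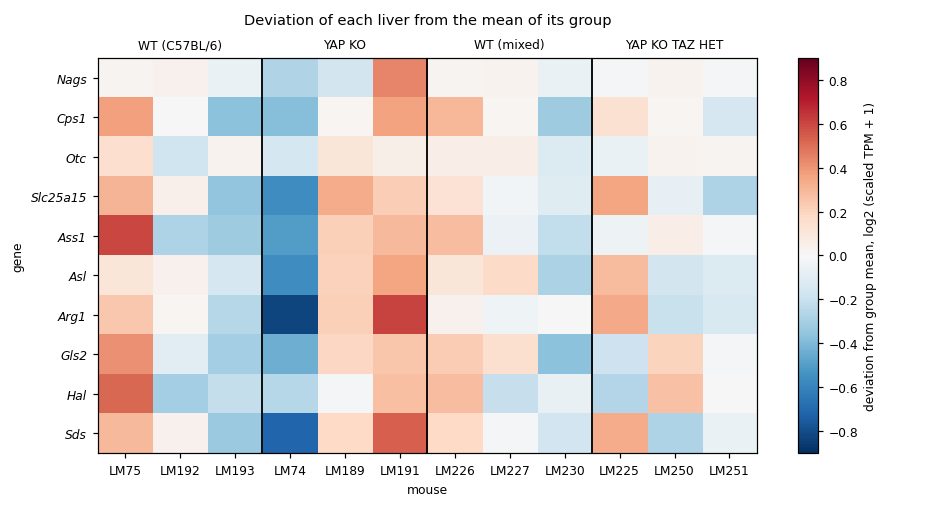
Deviation of each of 12 livers (columns, by group) from the mean of its group for each gene (rows), on the log2 scale of scaled TPM + 1, with red above and blue below the mean. LM74 is blue and LM191 red for all 10 genes, and the row of *Otc* is pale.

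Of 17 further urea cycle and ammonia genes tested, 6 fell and 2 rose in YAP KO mice and 9 fell and 1 rose in mice labelled YAP KO TAZ HET, beside 18% and 19% of all genes that fell in the same sets. The medians were -0.31 and -0.59. Without scaling 6 fell and 4 rose in YAP KO mice, with a median of 0.05, and 7 fell and 2 rose in the mixed set. *Car5a*, the mitochondrial carbonic anhydrase that supplies bicarbonate to the cycle, fell by 2.06 and 1.71 on the log2 scale, from 144 to 46.2 TPM and from 146 to 54.6 TPM in the group means (limma adjusted p = 0.000781 and 5.66e-05). *Slc38a3*, a glutamine transporter, fell by 1.57 and 1.53 (limma adjusted p = 0.00015 and 0.000263), and *Glul* by 1.52 and 1.99 (limma adjusted p = 0.00243 and 0.00912). *Glul* in livers labelled YAP KO TAZ HET was at 606 TPM in LM225 and at 152 and 154 TPM in the other two, so that group was split.

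Breakdown genes of other amino acids differed by list, and their counts stand beside the 18% and 19% of all genes that fell. For branched-chain amino acids, lysine and proline, 12 of 15 genes fell in each set and none rose, with a median log2 fold change of -0.80 and -0.84, beside -0.04 over all genes. Without scaling 9 and 10 of the 15 fell. *Prodh* and *Prodh2*, of proline breakdown, fell by 1.35 and 1.66 in the C57BL/6 set and by 1.38 and 1.23 in the mixed set. *Gcdh*, of lysine breakdown, fell by 1.002 and 1.09. For aromatic amino acids 9 and 11 of 14 fell, among them *Hpd* (-1.40 and -1.44) and *Afmid* (-1.86 and -1.68), while *Acmsd*, which steers tryptophan products away from NAD, rose by 2.12 and 1.40. The counts of falls were 9 and 11 without scaling as well. In the list of histidine, serine, glycine and threonine breakdown, 6 and 5 of 12 fell and 0 and 1 rose. Of the later steps than *Hal*, *Uroc1* (-0.62 and -0.71) and *Ftcd* (-1.27 and -1.26) fell in both sets with it. *Amdhd1*, also a later step, did not pass the threshold in either set (-0.05 and -0.11, limma adjusted p = 0.859 and 0.631). Without scaling that list had 3 falls and 2 rises in YAP KO mice and 3 of each in the mixed set. For sulfur amino acids 4 of 12 fell in each set, led by *Ahcy* (-1.51 and -1.45), and *Csad*, of taurine synthesis, rose by 1.78 and 2.08. Without scaling 3 fell and 3 rose in each set. Among aminotransferases 3 and 5 of 8 fell, with *Oat* (-1.05 and -1.37) and *Gpt2* (-0.82 and -1.24) in both. Without scaling 1 fell and 1 rose in YAP KO mice and 4 fell in the mixed set. Apart from *Amdhd1*, these named genes had limma adjusted p of 0.0184 at most. Outside the members, 31 named genes had been chosen for passing the threshold in both sets in the same direction. None of them changed direction under any alternative, an outcome that this choice favours. Of their values, 22 lost or gained a call, among them values of *Uroc1*, *Gpt2*, *Oat* and *Klf15*.

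The members can be set beside other zoned genes and regulators. Of all genes, 18% fell and 18.8% rose in YAP KO mice, and 19% and 19.2% in the mixed set. Of 14 other periportal genes, 7 fell and 2 rose in each set: *Cyp2f2* (-3.73 and -4.71), *Igf1* (-1.10 and -0.97) and *Pigr* (-0.81 and -0.94) fell, while *Cdh1*, E-cadherin, rose by 2.24 and 2.73 and *Hsd17b13* by 0.73 and 0.80. Of 14 pericentral genes, 12 fell in YAP KO and 11 in mice labelled YAP KO TAZ HET and none rose, with medians of -0.99 and -1.22, among them *Cyp2e1* (-2.83 and -2.68) and *Slc1a2* (-2.32 and -2.55). Without scaling, 7 and 9 pericentral genes and 3 and 5 periportal genes fell. Of 12 regulators of amino acid enzyme genes, 5 fell in each set and none rose, and *Ppara* (-1.55 and -1.88), *Klf15* (-0.75 and -0.78) and *Cebpa* (-0.94 and -0.68) fell in both. Without scaling 2 regulators fell in each set, and under quantile normalization 4 fell in YAP KO mice, while 1 fell and 1 rose in the mixed set.

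Most markers of macrophages and stellate cells were higher in knockout livers, those of cholangiocytes were split, and the sums of endothelial markers overlapped. The summed TPM of 8 macrophage and monocyte markers was 218.5 to 270.6 in WT (C57BL/6) and 646 to 969 in YAP KO livers, and 184 to 387 in WT (mixed) and 747 to 842 in livers labelled YAP KO TAZ HET, with all 8 genes higher past the threshold in both. For 8 stellate cell and fibroblast markers the ranges were 136 to 161 against 432 to 563 and 117 to 148.5 against 353 to 447 TPM, with 6 of 8 higher past the threshold in each set and 1 lower in the C57BL/6 set. For 6 cholangiocyte markers, of which 5 were tested, 3 were higher in each set and 0 and 1 lower. *Spp1*, *Sox9* and *Cldn7* rose, *Krt19* did not pass the threshold in either set, and *Epcam* fell in the mixed set (-1.48, limma adjusted p = 0.00118). The 6 markers summed to 29.1 to 55.65 against 335 to 755 TPM and 43.3 to 61.2 against 119 to 229.7 TPM. Most of this was *Spp1*, with group means of 40.0 against 450 TPM and 45.4 against 154 TPM, so the sum does not stand for the number of cholangiocytes. LM74, the liver furthest below its own group mean in the 10 genes, had the highest sum of all livers in each of these 3 lists. No gene of these 3 lists was at 0 in a whole group. The sums of 6 endothelial markers overlapped in both sets, at 77.6 to 85.1 against 73.5 to 109.5 TPM and 100.9 to 105.8 against 88.4 to 124.6 TPM, with 2 lower in each set and 1 higher in the mixed set. LM74 had the highest of the YAP KO sums there too. Of 6 lymphocyte markers, 3 and 4 were tested and 1 was higher in each set, and of 5 red cell markers 1 was higher in YAP KO mice and 0 in the mixed set. The sum of 12 hepatocyte reference genes overlapped between knockout and WT livers in both sets, at 140400 to 152800 against 142000 to 155100 TPM and 139000 to 164400 against 132200 to 162600 TPM, and 5 kidney or intestine markers summed to 1.16 TPM at most. The hepatocyte genes did not move together: 5 fell and 1 rose in YAP KO mice and 4 fell and 1 rose in the mixed set. *Trf*, transferrin, rose by 1.18 and 1.14, while the apolipoprotein gene *Apoa2* (-1.36 and -0.91) and the transthyretin gene *Ttr* (-1.13 and -0.93) fell. The part of these cells in the changes of the 10 genes was not tested. Scaled to the hepatocyte reference genes, 2 members fell in YAP KO mice (*Otc* and *Hal*) and 3 in mice labelled YAP KO TAZ HET (*Otc*, *Asl* and *Sds*).

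**Figure D5:**
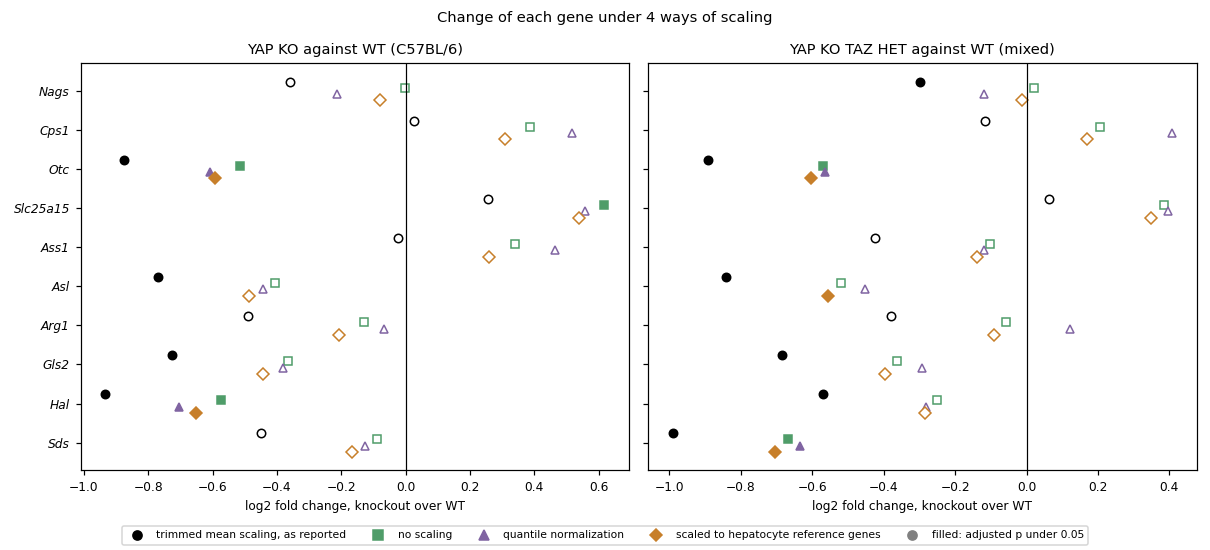
Log2 fold change of each gene (x axis) in YAP KO (left) and YAP KO TAZ HET (right) mice under 4 ways of scaling, with filled symbols for an adjusted p under 0.05. *Otc* is filled and negative throughout in both sets, *Hal* in YAP KO and *Sds* in mice labelled YAP KO TAZ HET, and *Slc25a15* is filled and positive without scaling in YAP KO mice.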

How the data were processed

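RNA of 12 mouse livers in 4 groups of 3 was measured. The authors deposited TPM values per gene, made in CLC Genomics Workbench from reads mapped to GRCm38, 1 table for each set of mice. The comparison columns of the tables (fold changes, p-values and group maxima, which the submitters' notes tie to edgeR) were not used. TPM keep no read depth, so no counting interval was given. All TPM columns were matched to mice by their labels (0 unmatched), no pair of libraries was identical (0 pairs), and 41675 of 41743 gene IDs (99.84%) are in GENCODE M21.

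Genes with at least 1 TPM in 3 libraries of a comparison were kept. TPM were divided by trimmed mean factors (30% of log ratios and 5% of levels trimmed), 1 was added and log2 taken. The fits used limma 3.58.1 in R 4.3.3, with a trend in the prior variance, Benjamini-Hochberg adjustment over all genes and a threshold of 0.05. Single values were compared by two-sided exact permutation tests (scipy 1.17.1). On simulated data with 200 genes changed by 1 on the log2 scale, the fits recovered 82% of them among 11704 genes for YAP KO, 80% among 11741 for YAP KO TAZ HET, 66.5% among 12159 for the difference between the models and 82% among 11126 for the WT groups, with 10, 11, 5 and 7 false calls. The changed genes were drawn only from those above a set mean level, and random noise was added after scaling. These rates therefore do not cover genes at low levels or the scaling step. Far fewer genes were changed than were called between knockout and WT livers. Alternatives were a pseudocount of 0.1, no filter, a filter of 5 TPM, no scaling, quantile normalization, scaling to hepatocyte reference genes, all 12 libraries in 1 fit, robust variance shrinkage, and leaving out each mouse.

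The members and lists were chosen with earlier results of these data known. All 10 members were named, and of each other list up to 3 genes with the largest rise and 3 with the largest fall past the threshold in both sets, beside the genes of the ratio pairs, *Yap1* and *Wwtr1*. *Amdhd1* was named in addition, as a later step of histidine breakdown. For likeness, up to 3 genes with the highest Pearson r were taken for each member. Values of some genes that this rule names are not reported here.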

Additional observations from a re-analysis of the deposited data

How the results depend on the processing

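The count of members that fell in YAP KO mice was 4, and it was 2 without the filter on low values, 2 without scaling (with 1 member higher), 2 under quantile normalization and 2 when scaled to hepatocyte reference genes. Leaving out 1 mouse gave 2 to 5, with 2 without LM75 or LM192. In the mixed set the count was 6, and it was 2 without scaling, 2 under quantile normalization and 3 when scaled to hepatocyte reference genes. Leaving out 1 mouse gave 3 to 5, with 3 without LM226 or LM251. Directions reversed for members that had not passed the threshold, and for *Nags* in the mixed set (0.0207 without scaling). *Ass1* in YAP KO mice was 0.34 without scaling, 0.46 under quantile normalization and 0.26 when scaled to hepatocyte reference genes, and -0.18 to 0.28 with a mouse left out. *Cps1* in the mixed set was 0.21, 0.41 and 0.17 in the same order and -0.28 to 0.0371 with a mouse left out, and in YAP KO mice -0.16 to 0.21. *Arg1* in the mixed set was 0.12 under quantile normalization, and *Slc25a15* there -0.12 to 0.20 with a mouse left out. The log2 ratio of the summed TPM of the 10 genes was -0.19 in YAP KO and -0.41 in the mixed set on scaled values. The cause of these shifts was not tested. Of the members' values under these alternatives in both sets, 224 kept direction and call, 39 lost the call, 3 gained one and 14 reversed. Over all genes, the number higher was 1434 in place of 2195 in YAP KO mice without LM189, and 1406 and 1337 in place of 2253 in the mixed set without LM250 and LM251. The difference between the models called 3 genes higher and 5 lower, with 14 higher without LM74 and 1 and 1 without the filter. The WT groups differed in 19 genes higher and 5 lower in the mixed set, with 7 and 1 without LM227. No member was called in either of these comparisons under any alternative. TPM keep no depth, so counting error is unknown. No paired analysis was possible because the labels tie no mouse to a litter shared with a mouse of another group.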
